A study of Mus musculus with 9 samples.

Results

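The nuclear genes of respiratory complexes II to V were followed in bulk RNA sequencing libraries of the mouse retinal pigment epithelium (RPE). Members were all genes of the deposited table whose symbol starts with Sdha, Sdhb, Sdhc, Sdhd, Uqcr, Cox4i, Cox5, Cox6, Cox7, Cox8 or Atp5, with no pseudogene mark in the symbol and a summed count of at least 100 over 9 libraries. This gave 50 of 40202 genes: 8 of complex II, 8 of complex III, 17 of complex IV and 17 of complex V. The prefixes also catch 4 assembly factors of complex II, and complex V genes appear under older symbols such as Atp5a1 and Atp5b. Only Cox8c was left out by the count minimum, with 3 counts over all libraries, and the lowest totals kept were 144 for Cox6a2, 328 for Cox7b2 and 398 for Cox7a1.

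The animals of all groups were wild-type mice. Young controls were 9 months old, aged controls were 24 months old, and the treated group was also 24 months old and had been given vutiglabridin, a synthetic analog of the licorice flavonoid glabridin, for 6 months. Each group had 3 libraries. They were made from total RNA of the RPE with the TruSeq Stranded Total RNA Gold kit. No sex, dose or batch is given in the labels, nor whether the libraries came from separate animals, so p-values measure only the spread between these samples, which may be technical. The comparisons address how these genes differ with age, and whether aged mice on the compound differ from aged and from young controls. The 3 comparisons share libraries and are not independent of each other.

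Complexes II, III and IV pass electrons from succinate and ubiquinol to cytochrome c and oxygen, complexes III and IV pump protons while doing so, and complex V, the ATP synthase, uses the proton gradient to make ATP. Complex II is coded by nuclear genes alone; the other complexes combine nuclear subunits with a few coded by mitochondrial DNA. Several complex IV subunits exist as a widely expressed form and a form found mainly in striated muscle, testis or lung. RPE cells are rich in mitochondria and are known to rely on oxidative metabolism, sparing glucose for the photoreceptors they support.

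Total counts per library were 44196290 to 56797891, and 0.152% to 0.229% of them lay in the 50 genes. All 50 passed the filter on low counts, beside 25273 genes in all. Levels are given in CPM, counts scaled to library size, and n was 3 libraries per group throughout. The RPE markers stood at 22160 to 24550 CPM in sum in young controls, 16800 to 19530 in aged controls and 12880 to 19230 in treated libraries. By the test used below, 8 of 15 of them were lower and 1 higher in treated than in young libraries. In that comparison 7.69% of all genes were lower and 9.01% higher. Between aged and young controls 1 RPE marker was lower, where 1.68% of all genes were called in either direction. Skeletal muscle markers summed to 95.3 to 259 CPM in young controls, 212 to 498 in aged controls and 187 to 706 in treated libraries (0 of 20 called in any comparison). Rod markers summed to 234 to 458, 336 to 457 and 312 to 940 CPM in the same order, with 1 of 19 called higher and 1 lower in treated than in young libraries. Macrophage markers summed to 629 to 958, 1441 to 1577 and 1217 to 1565 CPM, with 6 of 10 called higher in aged than in young controls and 5 of 10 in treated than in young libraries. Between treated and aged controls 1 macrophage marker was lower, where 1.97% of all genes were lower. Of 10 endothelial markers (764 to 1003 CPM in sum) 4 were lower in treated than in young libraries. Young control 1 and treated library 2 stood apart from the rest. In young control 1 mt-Rnr2, a ribosomal RNA of mitochondria, stood at 1532 CPM, where the other libraries had 4321 to 5768. Treated library 2 had 5131 CPM of erythrocyte markers against 91.1 to 644, and 336 CPM of stratified epithelium markers against 46.5 to 95.8. In bulk RNA, fewer RPE cells and less RNA per cell cannot be told apart, and the part of these differences in the results on the respiratory genes was not tested beyond the fits named below.

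Promoters are shown for 4 members because these genes were called between treated and young libraries, by the test described below, and have an entry in the RefSeq promoter table (GRCm38.p6), which covers 40 of the 50 members. Each runs 5′ to 3′ on the gene's strand, from 250 bases before to 50 bases after the annotated start. Capitals mark the letters CCGGAAG or their reverse complement CTTCCGG, the core read by GABPA (nuclear respiratory factor 2), an ETS factor known for binding promoters of respiratory genes. Cox8a lies at chr19:7217567-7217866 and Sdhaf1 at chr7:30322326-30322625, both on the minus strand. Sdhaf4 lies at chr1:24005591-24005890 on the minus strand and Cox7a1 at chr7:30183921-30184220 on the plus strand.
Cox8a: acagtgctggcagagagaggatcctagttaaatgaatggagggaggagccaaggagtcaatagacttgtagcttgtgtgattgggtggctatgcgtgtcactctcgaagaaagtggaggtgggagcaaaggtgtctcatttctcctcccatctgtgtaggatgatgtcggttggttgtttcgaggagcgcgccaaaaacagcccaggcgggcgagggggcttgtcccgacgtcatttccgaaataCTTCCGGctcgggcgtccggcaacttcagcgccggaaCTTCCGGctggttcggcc
Sdhaf1: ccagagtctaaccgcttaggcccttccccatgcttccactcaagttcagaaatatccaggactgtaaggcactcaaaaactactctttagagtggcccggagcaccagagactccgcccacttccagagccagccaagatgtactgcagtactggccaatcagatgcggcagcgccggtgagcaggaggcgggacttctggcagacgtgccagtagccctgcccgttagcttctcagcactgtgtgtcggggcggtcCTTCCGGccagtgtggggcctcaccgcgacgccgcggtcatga
Sdhaf4: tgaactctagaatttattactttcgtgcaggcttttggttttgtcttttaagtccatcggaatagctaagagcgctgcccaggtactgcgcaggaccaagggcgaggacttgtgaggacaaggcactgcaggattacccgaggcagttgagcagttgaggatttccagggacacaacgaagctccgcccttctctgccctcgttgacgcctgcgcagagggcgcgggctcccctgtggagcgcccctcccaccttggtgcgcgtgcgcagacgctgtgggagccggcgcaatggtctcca
Cox7a1: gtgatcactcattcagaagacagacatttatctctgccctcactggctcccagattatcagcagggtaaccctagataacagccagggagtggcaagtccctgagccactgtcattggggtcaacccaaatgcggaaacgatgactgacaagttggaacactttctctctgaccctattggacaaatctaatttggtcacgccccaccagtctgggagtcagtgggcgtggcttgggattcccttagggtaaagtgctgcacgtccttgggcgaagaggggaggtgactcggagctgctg

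The GABPA letters occurred in 15 of the 40 member promoters (37.5%) and in 9.12% of the 27025 promoters of all genes. Cox8a held 2 matches and Sdhaf1 held 1, while Sdhaf4 and Cox7a1 held none. The NRF1 letters GCGCATGC (reverse complement GCATGCGC) were found in 7 of 40 members (17.5%), among them Sdhb, Uqcrc1 and Atp5l, against 2.8% of all promoters. The YY1 letters AAGATGGC were found in 2 members (5.0%; 2.88% of all), the muscle E-box letters CAGCTG in 2 members, Cox8b and Atp5b (5.0%; 16.1% of all), and the MEF2 letters TAAAAATA in 0 members (2.71% of all). Both strands were searched, and none of these letter runs contains another. Member promoters had a median of 56.8% G and C and 19 CpG pairs, against 52.7% and 7 over all promoters. A match describes the letters of the window and nothing about binding. Cox4i2 and Atp5mpl are named without a promoter.

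Per base of gene, the deposited FPKM values, which the authors divided by the whole span with introns, were highest for Atp5b, the catalytic beta subunit of the ATP synthase (median over 9 libraries 37.5), for Cox8a (37.2), for Atp5a1, the alpha subunit (31.1), and for Cox4i1 (12.8). They were lowest for Cox7b2 (0.00662), Cox4i2 (0.212) and Sdhaf3 (0.284). Long introns lower such a value, so the order is one of counts per span and not of transcripts.

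As a share of all counts, each complex was lower in every treated library than in every control library. Complex II took 0.0352% ± 0.0019 (SD) in young controls, 0.0352% ± 0.0007 in aged controls and 0.0294% ± 0.0012 in treated libraries. Complex III took 0.0238% ± 0.0034, 0.0231% ± 0.0012 and 0.0196% ± 0.0011 in that order. For complex IV the shares were 0.0406% ± 0.0083, 0.0386% ± 0.0021 and 0.0324% ± 0.0010, and for complex V 0.0978% ± 0.0147, 0.0925% ± 0.0051 and 0.0793% ± 0.0056. Young control 1 had the highest share for every complex; its lead over the other young libraries was small for complex II (0.0366% against 0.0359% and 0.0331%) and larger for complexes III, IV and V. Shares of a total move with all other genes, so the tests below were run on scaled counts. On scaled counts treated library 1 did not stay below all controls. Its members lay -0.02 from their mean over the libraries on the log2 scale, in the median. Young control 3 and aged control 3 were each at -0.04. In the medians by complex, treated library 1 was below all controls for II and III and not for IV and V.

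**Figure D1:**
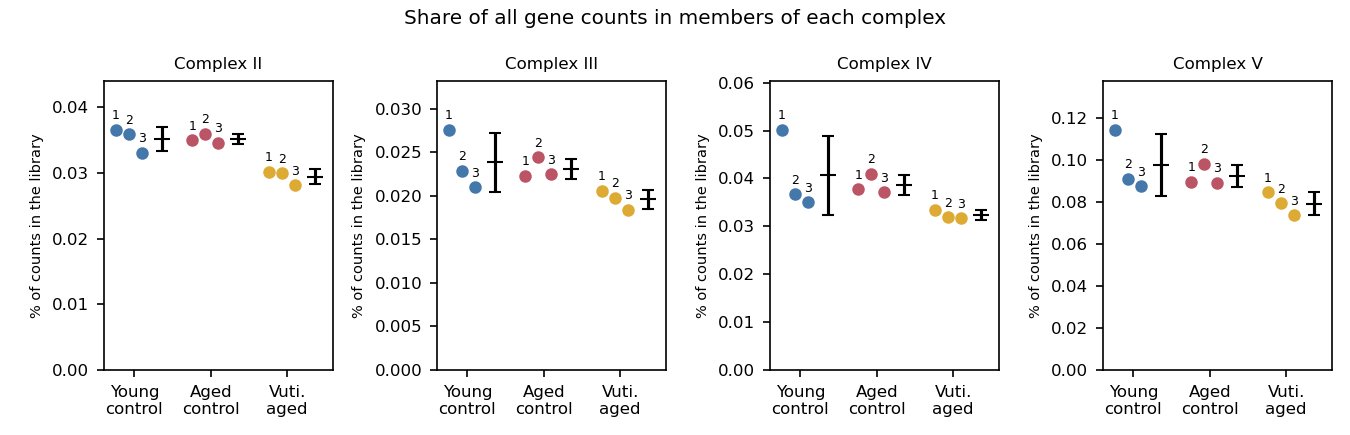
Share of all gene counts in the members of each complex (y axis, % of counts), by group (x axis); each point is 1 library with its replicate number, and bars show the mean ± SD of 3 libraries. The 3 treated libraries lay between 0.152% and 0.169% over all members, below the 6 control libraries (0.177% to 0.229%). These shares are not scaled, and on scaled counts treated library 1 did not stay below all controls.

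Between aged and young controls no respiratory gene was called. Raw counts of all 25273 genes were fitted with edgeR's quasi-likelihood test, and calls were made at an adjusted p under 0.05 (Benjamini-Hochberg, over all genes). Of the 50 members 0 were called higher or lower, where 1.68% of all genes were called, and 0 were called by DESeq2 (3.51% of all genes) or limma-voom (8.22% of all genes). At an unadjusted p under 0.05 there were 0 members, against 7.5% of all genes higher and 4.15% lower. Groups did not overlap for 0 members higher and 1 lower, Sdhaf1, against 13.2% and 12.1% of all genes. The log2 fold changes had a median of -0.10, with 40 of 50 members below 0, beside a median of -0.01 and 52.4% below 0 over all genes. Without young control 1 the median was 0.04, so the side of 0 rested on that library. Adjusted p-values of members began at 0.538.

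Between treated and aged controls, 0 members were called, where 4.34% of all genes were called (2.37% higher and 1.97% lower). At an unadjusted p under 0.05, 2 members were higher, Cox4i2 and Atp5l, and 3 were lower, Sdhaf4, Uqcr10 and Atp5c1, against 12.5% and 12.2% of all genes. DESeq2 called 3 members (Cox4i2 and Atp5l higher, Sdhaf4 lower) where it called 12.7% of all genes, and limma-voom 2 (Cox4i2 higher, Sdhaf4 lower) where it called 10.7%. Groups did not overlap for 4 members higher and 17 lower, against 14.7% and 17.5% of all genes. The median log2 fold change was -0.17, with 42 of 50 members (84%) below 0, beside -0.01 and 51.5% over all genes. All 8 members of complex II and all 8 of complex III had a negative fold change, as did 12 of 17 in complex IV and 14 of 17 in complex V.

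Between treated and young controls, 6 members were called (12%), fewer by share than the 16.7% of all genes called in that comparison. Sdhaf1, Sdhaf4, Cox8a and Atp5mpl were lower, where 7.69% of all genes were lower. Cox4i2 and Cox7a1 were higher, where 9.01% of all genes were higher. At an unadjusted p under 0.05, 3 members were higher and 16 lower, against 17.5% and 16.7% of all genes, and groups did not overlap for 3 higher and 12 lower, against 15.9% and 17.3%. The median log2 fold change was -0.23, with 45 of 50 members below 0, beside -0.01 and 50.6% over all genes; without young control 1 it was -0.12, with 38 below 0. DESeq2 called 9 members, these 6 with Sdhc, Uqcr10 and Atp5l, and 22.6% of all genes; limma-voom called Sdhaf4, Cox4i2 and Cox7a1, and 15.1% of all genes. Of the 6 edgeR calls only Sdhaf4 held in all 9 fits that left out 1 library. With the skeletal muscle markers as a covariate 0 of the 6 held, and 3.36% of all genes were called. The log2 fold changes in that fit were -0.67 for Sdhaf4, -0.94 for Sdhaf1, -0.60 for Cox8a, -0.74 for Atp5mpl, 0.57 for Cox4i2 and 1.18 for Cox7a1, and the member median was -0.33. In the paragraphs on single genes a call is edgeR's unless another tool is named.

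**Figure D2:**
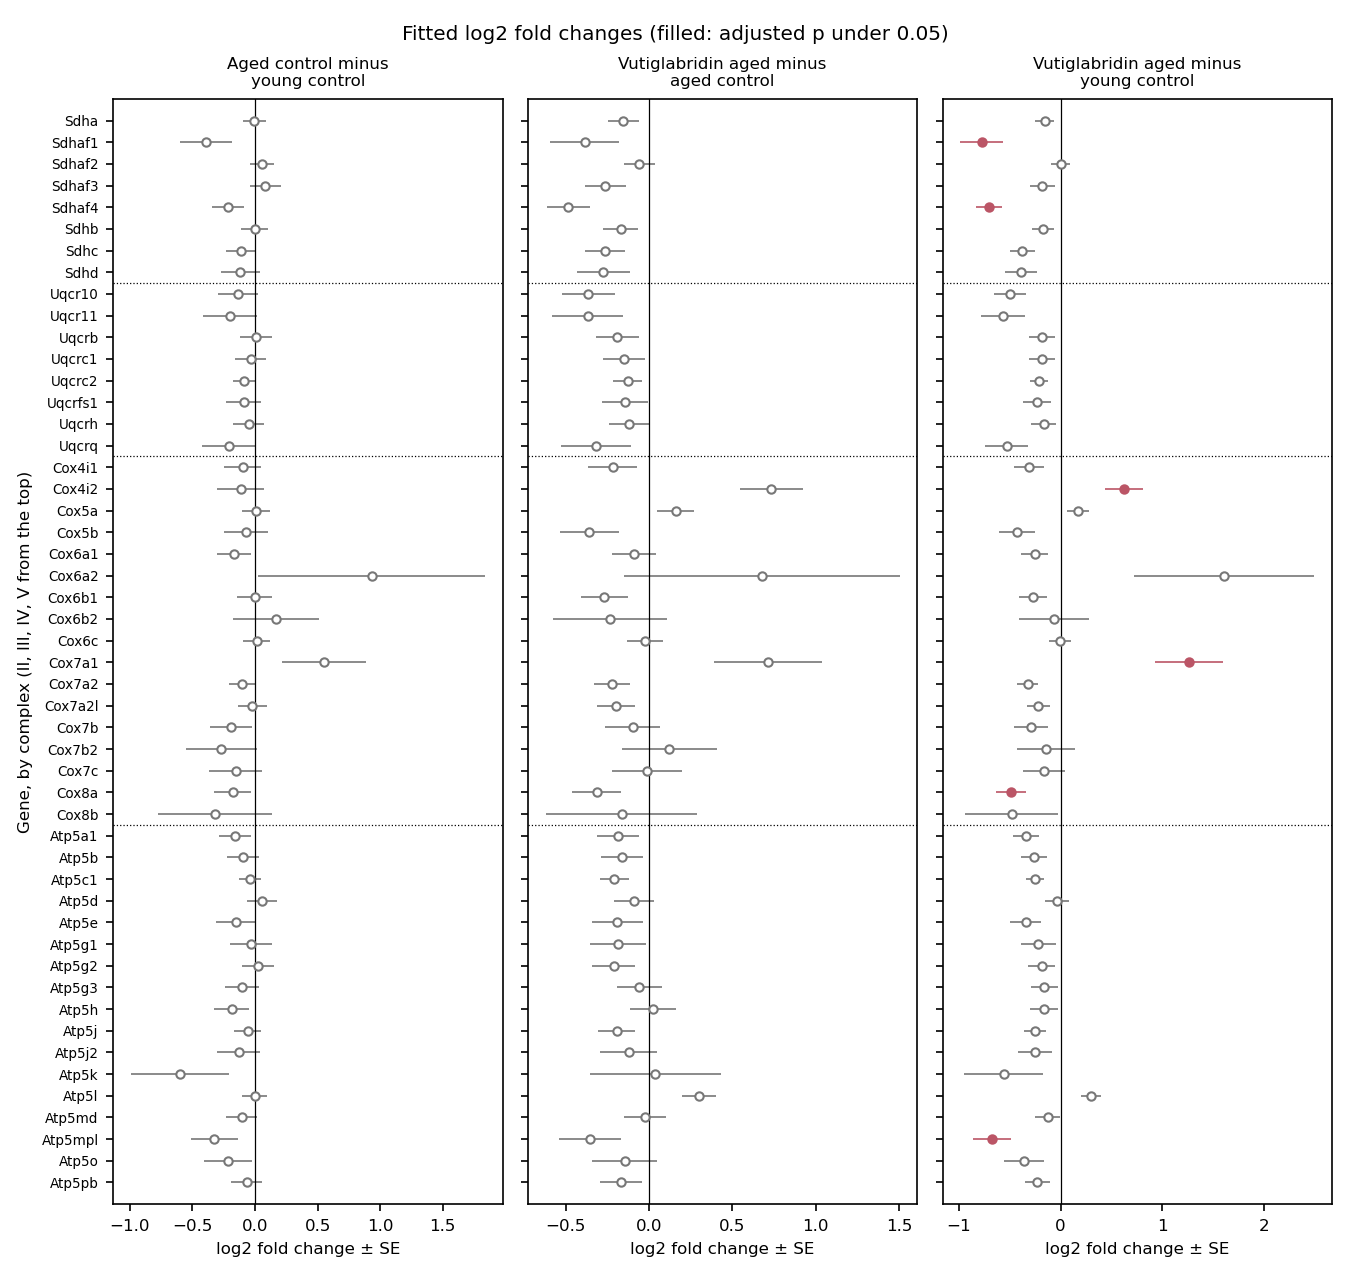
Fitted log2 fold change ± SE (x axis) of each member (y axis, by complex) in the 3 comparisons; filled points have an adjusted p under 0.05. Medians were -0.10, -0.17 and -0.23 from left to right, and the 6 filled points lie in the comparison of treated with young libraries.

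Young control 1 and treated library 3 lay at the ends of the range for many members. Without treated library 3 the median log2 fold change was -0.10 against aged controls, with 38 of 50 members below 0. Against young controls it was -0.19 in that fit, with 42 of 50 below 0. Without young control 1 the median between treated and aged controls was -0.17, with 42 of 50 below 0. Young control 1 was the highest of the 9 libraries for 39 of 50 members, where it was the highest for 21.2% of all genes tested. Its members lay 0.36 above their mean over the libraries on the log2 scale, in the median, with 0.30 for complex II, 0.33 for III, 0.37 for IV and 0.36 for V. Treated library 3 was the lowest for 25 of 50 members, where it was the lowest for 13.0% of all genes, and its median deviation was -0.25. Treated library 2 was the lowest for 11 members (22.2% of all genes; median deviation -0.13), a share like that of all genes, and treated library 1 for 1 member (12.8% of all genes; -0.02). Short genes stood out more in young control 1. It exceeded the mean of the other young libraries by 0.51 on the log2 scale for the 19 members with a span under 5000 bases and by 0.36 for the 31 longer ones, beside 0.11 and -0.01 for all genes of those spans.

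**Figure D3:**
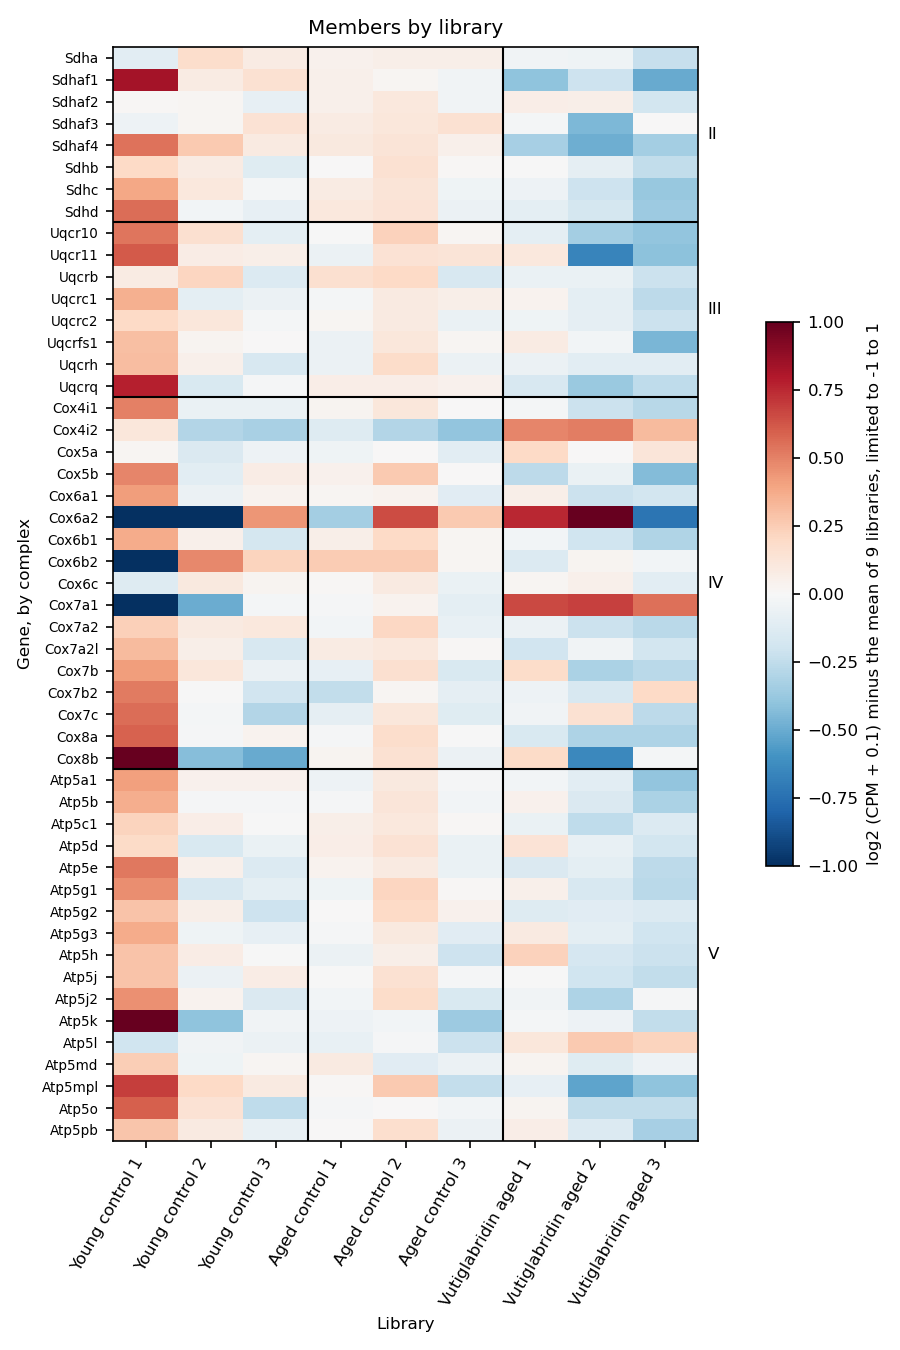
Deviation of log2 (CPM + 0.1) of each member (y axis, by complex) from its mean over the 9 libraries (x axis), limited to -1 to 1 in colour. Young control 1 is red for most members, with Cox6a2, Cox6b2 and Cox7a1 among its exceptions, and treated library 3 is blue for most.

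Complex II, succinate dehydrogenase, is built of Sdha, the flavoprotein that oxidises succinate, Sdhb, which carries the iron-sulphur clusters, and the membrane anchors Sdhc and Sdhd. Sdha was at 131, 160.0 and 149.8 CPM in young controls, 145, 147 and 147 in aged controls and 138, 138 and 120.4 in treated libraries. Sdhb was at 39.1, 36.1 and 31.3 CPM in young, 34.1, 37.9 and 34.3 in aged and 34.0, 32.0 and 28.6 in treated libraries. For both genes the treated libraries were below all aged controls but overlapped the young controls, and the differences did not pass the test (log2 fold changes against aged controls -0.15 ± 0.09 and -0.17 ± 0.11, adjusted p 0.333 and 0.346, edgeR). The anchor Sdhc stood at 55.5, 45.5 and 41.9 CPM in young, 44.8, 46.4 and 41.0 in aged and 40.8, 36.6 and 32.6 in treated libraries. The anchor Sdhd stood at 66.1, 44.0 and 42.4, then 48.2, 49.4 and 43.1, then 41.8, 39.7 and 34.8 CPM. Treated libraries were the lowest 3 of 9 for both anchors, with no edgeR call (adjusted p against young controls 0.058 for Sdhc and 0.112 for Sdhd); DESeq2 called Sdhc.

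The assembly factors of complex II gave 2 of the 4 lower calls. Sdhaf4, which holds the flavin-bearing Sdha ready for Sdhb, was at 15.8, 13.0 and 11.5 CPM in young controls, 11.6, 11.9 and 11.3 in aged controls and 8.58, 7.70 and 8.53 in treated libraries. No treated library overlapped a control. It fell by 0.70 ± 0.13 on the log2 scale against young controls (adjusted p = 0.00826, edgeR) and differed by -0.48 ± 0.13 from aged controls (adjusted p = 0.0607, edgeR). The gene (chr1, 24035020 to 24044721, minus strand, deposited coordinates) shares 40.2% of its span with Gm53062 on the other strand. Whether the counting used strand is not stated, so reads of both cannot be told apart. Gm53062 itself was at 10.6 to 13.4 CPM in young, 10.1 to 10.6 in aged and 7.25 to 7.59 in treated libraries, and was called lower against both (log2 fold changes -0.69 and -0.48, adjusted p 0.00574 and 0.0452, edgeR).

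Sdhaf1, which guards the iron-sulphur clusters of Sdhb during assembly, was at 7.68, 4.53 and 4.74 CPM in young, 4.41, 4.33 and 4.17 in aged and 3.21, 3.69 and 2.98 in treated libraries. The 3 groups did not overlap, and young control 1 was far above the other young libraries. The gene (chr7, 30020834 to 30021800, no overlapping gene) fell by 0.78 ± 0.21 on the log2 scale against young controls (adjusted p = 0.0325, edgeR). Without young control 1 the change was -0.50 and was not called (adjusted p = 0.0783, edgeR). It was also the member nearest to a call between aged and young controls (-0.39 ± 0.21, adjusted p = 0.538, edgeR). The other assembly factors had no call. Sdhaf2, which attaches flavin to Sdha, was at 26.0 to 31.8 CPM over all 9 libraries, and Sdhaf3, a partner of Sdhaf1, at 17.1 to 26.0.

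**Figure D4:**
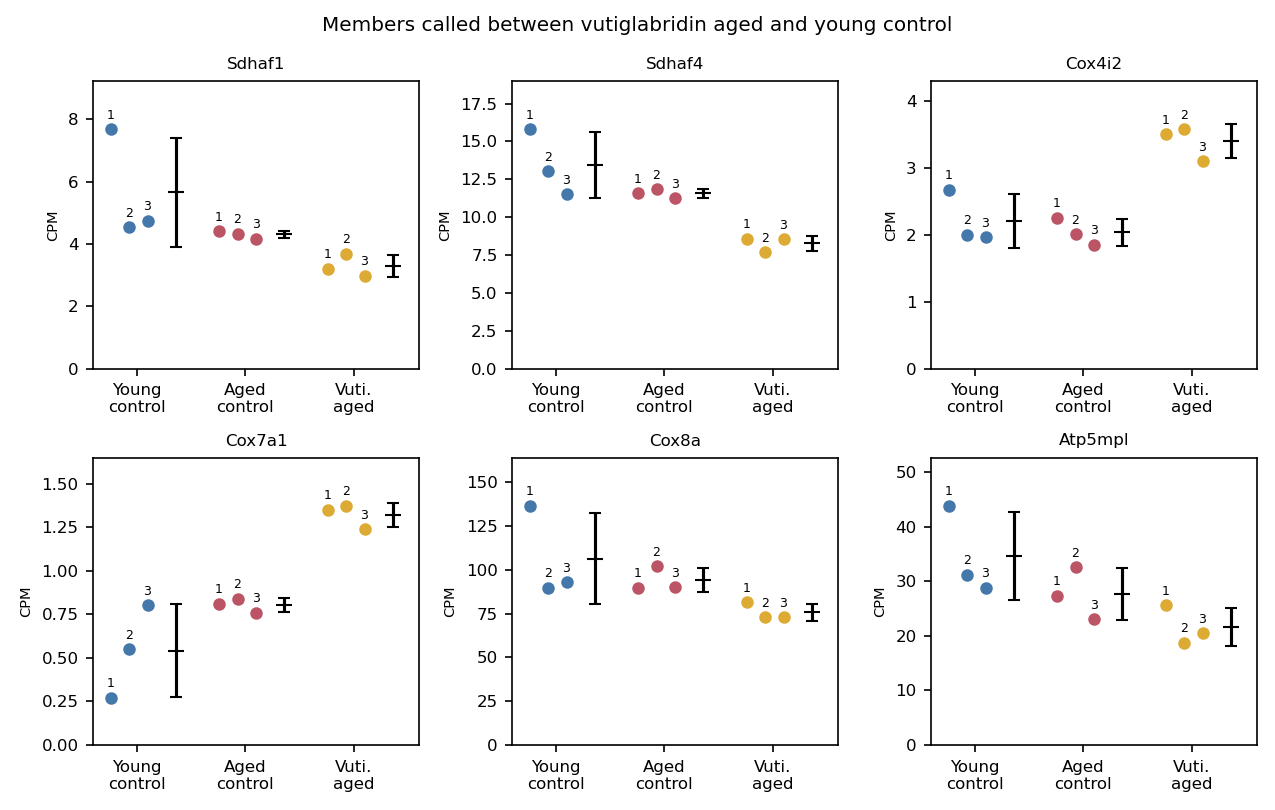
CPM (y axis, from 0) by group (x axis) of the 6 members called between treated and young libraries; points are libraries with their replicate number and bars show the mean ± SD of 3. Treated libraries do not overlap the controls for any of the 6 except Atp5mpl, where treated library 1 (25.6 CPM) is above aged control 3 (23.0).

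Complex III, the cytochrome bc1 complex, had no call by edgeR in any comparison with TMM scaling and all 9 libraries. Uqcr10, one of its small accessory subunits, came nearest, at 26.5, 20.4 and 17.0 CPM in young controls, 18.2, 21.4 and 18.5 in aged controls and 17.0, 14.4 and 13.8 in treated libraries. Treated libraries were the lowest 3, by -0.50 ± 0.16 against young controls (adjusted p = 0.0562, edgeR; called by DESeq2 and with upper quartile or total count scaling) and -0.36 ± 0.16 against aged controls (adjusted p = 0.193, edgeR). Uqcrq, the ubiquinone-binding small subunit, was at 18.7, 9.81 and 10.8 CPM in young, 11.4, 11.4 and 11.2 in aged and 9.72, 8.39 and 9.12 in treated libraries. Its difference of -0.21 ± 0.21 between aged and young controls was set by young control 1 and was 0.13 without that library, neither of them called (adjusted p 0.794 and 0.816, edgeR). The core proteins Uqcrc1 and Uqcrc2 stood at 38.8 to 59.5 and 49.7 to 66.1 CPM over the 9 libraries, and Uqcrfs1, the Rieske iron-sulphur protein, at 28.3 to 48.1. The hinge protein Uqcrh varied little in treated libraries (22.2 to 23.1 CPM), beside 21.5 to 29.7 in young controls. Over the 8 genes the median log2 fold change was -0.09 between aged and young controls, -0.17 between treated and aged controls and -0.22 between treated and young controls.

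Complex IV, cytochrome c oxidase, held both higher calls and the lower call of Cox8a, the widely expressed form of subunit 8. Cox8a (chr19, 7192523 to 7194981, no overlapping gene) was at 136, 89.7 and 92.8 CPM in young controls, 89.8, 102 and 90.1 in aged controls and 81.3, 72.9 and 72.9 in treated libraries. All treated libraries were below all controls, and young control 1 alone exceeded 102 CPM. It fell by 0.49 ± 0.15 on the log2 scale against young controls (adjusted p = 0.0473, edgeR), differed by -0.31 ± 0.15 from aged controls (adjusted p = 0.221, edgeR), and by -0.18 ± 0.15 between aged and young controls (adjusted p = 0.743, edgeR). The call was held in 1 of 9 fits that left out 1 library. Without young control 1 the change was -0.27 (adjusted p = 0.104, edgeR), and in the other 8 fits it was -0.59 to -0.45. Cox4i1, the common form of subunit 4, was at 113, 76.0 and 75.8 CPM in young, 80.9, 86.2 and 80.0 in aged and 78.6, 68.6 and 65.5 in treated libraries, with no call. The treated libraries lay below all aged controls but overlapped the young.

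Cox4i2, the subunit 4 form known from lung and from cells that sense low oxygen, went the other way. It was at 2.68, 2.00 and 1.96 CPM in young controls, 2.26, 2.01 and 1.86 in aged controls and 3.51, 3.58 and 3.11 in treated libraries. No treated library overlapped a control, and it rose by 0.62 ± 0.19 on the log2 scale against young controls (adjusted p = 0.0469, edgeR). Against aged controls it was 0.73 ± 0.19 higher and just short of the threshold (adjusted p = 0.0539, edgeR; 0.00581 to 0.201 over the alternatives). As a share of Cox4i1 and Cox4i2 counts together it was 2.47% ± 0.13 (SD) in young, 2.42% ± 0.26 in aged and 4.59% ± 0.35 in treated libraries. The gene (chr2, 152596093 to 152606957, plus strand) shares 58.0% of its span with Bcl2l1 on the other strand, the gene of the survival protein BCL-XL, which had 78968 counts over all libraries against 1129 for Cox4i2. Bcl2l1 stood at 122 to 169.8 CPM in young, 142 to 145 in aged and 205 to 307 in treated libraries, and was called higher against both controls (log2 fold changes 0.72 and 0.76, adjusted p 0.0167 and 0.0331, edgeR). Gm32057, also on the other strand, shares 33.4% of the Cox4i2 span and had 405 counts over all libraries. It was not called (log2 fold changes 0.63 and 1.00 against young and aged controls, adjusted p 0.316 and 0.179, edgeR). Reads of the shared stretches cannot be assigned to any of these genes from these counts.

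The form of subunit 7a found mainly in heart and skeletal muscle, Cox7a1, was at 0.273, 0.550 and 0.803 CPM in young controls, 0.811, 0.838 and 0.758 in aged controls and 1.35, 1.37 and 1.24 in treated libraries. Treated libraries did not overlap the others; these values rest on 12 to 45 counts in young libraries, 38 to 46 in aged and 58 to 67 in treated. It rose by 1.27 ± 0.33 on the log2 scale against young controls (adjusted p = 0.0307, edgeR), and differed by 0.72 ± 0.32 from aged controls (adjusted p = 0.204, edgeR) and by 0.55 ± 0.34 between aged and young (adjusted p = 0.618, edgeR). Its common partner Cox7a2 was at 25.8, 23.2 and 23.4 CPM in young, 21.4, 25.2 and 20.8 in aged and 20.9, 18.8 and 18.1 in treated libraries, with the treated libraries below all young controls but no call (adjusted p = 0.0609, edgeR). Cox7a1 made up 2.22% ± 1.14 (SD) of the counts of both in young, 3.46% ± 0.22 in aged and 6.43% ± 0.37 in treated libraries. A single library's share had a 95% Wilson interval of 0.600% to 1.82% in young control 1, the lowest, and of 5.36% to 8.59% in treated library 2, the highest. Cox7a1 (chr7, 29883596 to 29885455, plus strand) shares 70.6% of its span with LOC118567480 on the other strand, which had 2.27 to 3.78 CPM over all libraries and no call. Cox7a2l, a factor that joins complexes III and IV, was at 76.6, 63.9 and 55.1 CPM in young, 65.0, 66.0 and 61.9 in aged and 53.8, 60.1 and 54.1 in treated libraries, with no call.

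Cox7a1 had its highest value of each group in young control 3, aged control 2 and treated library 2. These libraries had the highest sum of skeletal muscle markers in their group (259, 498 and 706 CPM). With those markers as a covariate the Cox7a1 call was lost (adjusted p = 0.140, edgeR), as were the calls of all other members. In that fit 3.36% of all genes were called, against 16.7% without the covariate. Young control 3, aged control 2 and treated library 2 were also the highest of their groups for Cox6a2. Cox6a2, the striated muscle form of subunit 6a, had 3, 1 and 21 counts in young controls, 10, 23 and 16 in aged controls and 21, 43 and 6 in treated libraries, and no difference passed the test (adjusted p 0.228 to 0.788, edgeR). Its lowest value lay in young control 2 and its highest in treated library 2, the libraries with the lowest (95.3 CPM) and highest (706 CPM) sum of skeletal muscle markers. Among treated libraries both genes followed the order of the marker sums: 521, 706 and 187 CPM for the markers, 0.488, 0.922 and 0.111 CPM for Cox6a2 and 1.35, 1.37 and 1.24 CPM for Cox7a1, in libraries 1, 2 and 3. Within the control groups Cox6a2 kept that order and Cox7a1 did not. In young controls Cox7a1 was at 0.273, 0.550 and 0.803 CPM beside marker sums of 224, 95.3 and 259. In aged controls it was at 0.811, 0.838 and 0.758 CPM beside 212, 498 and 457. Treated library 3 had a lower marker sum than any aged control and more Cox7a1. The part of muscle in these values was not tested. The groups overlapped for Cox6a2 and the markers. Cox6a2 lies wholly inside Itgad on the other strand, which stood at 0.767 to 0.902 CPM in young, 1.46 to 1.87 in aged and 1.91 to 5.45 in treated libraries and was called higher in treated than in young libraries (adjusted p = 0.00893, edgeR). The common form Cox6a1 was at 34.1, 24.6 and 26.3 CPM in young, 25.9, 26.1 and 23.6 in aged and 26.6, 22.1 and 22.5 in treated libraries, with no call. The groups overlapped.

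Cox8b, the muscle form of subunit 8, was at 23.4, 7.15 and 6.74 CPM in young controls, 9.82, 10.7 and 9.26 in aged controls and 11.0, 6.13 and 9.49 in treated libraries. Young control 1 was the highest of all libraries, and the groups overlapped (adjusted p 0.488 to 0.878, edgeR). Unlike Cox6a2, Cox8b did not follow the skeletal muscle markers. It was lowest of its group in young control 3 and treated library 2, where the markers summed to 259 and 706 CPM. Among aged controls Cox8b was highest in library 2, which had a marker sum of 498 CPM. It was 9.59% ± 4.37 (SD) of Cox8a and Cox8b counts in young, 9.56% ± 0.28 in aged and 10.4% ± 2.29 in treated libraries. Without both libraries that stand apart Cox8b was called higher in treated than in young libraries, and Sdhaf4 was the other member called in that fit (2 of 50 members, where 7.01% of all genes were called).

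**Figure D5:**
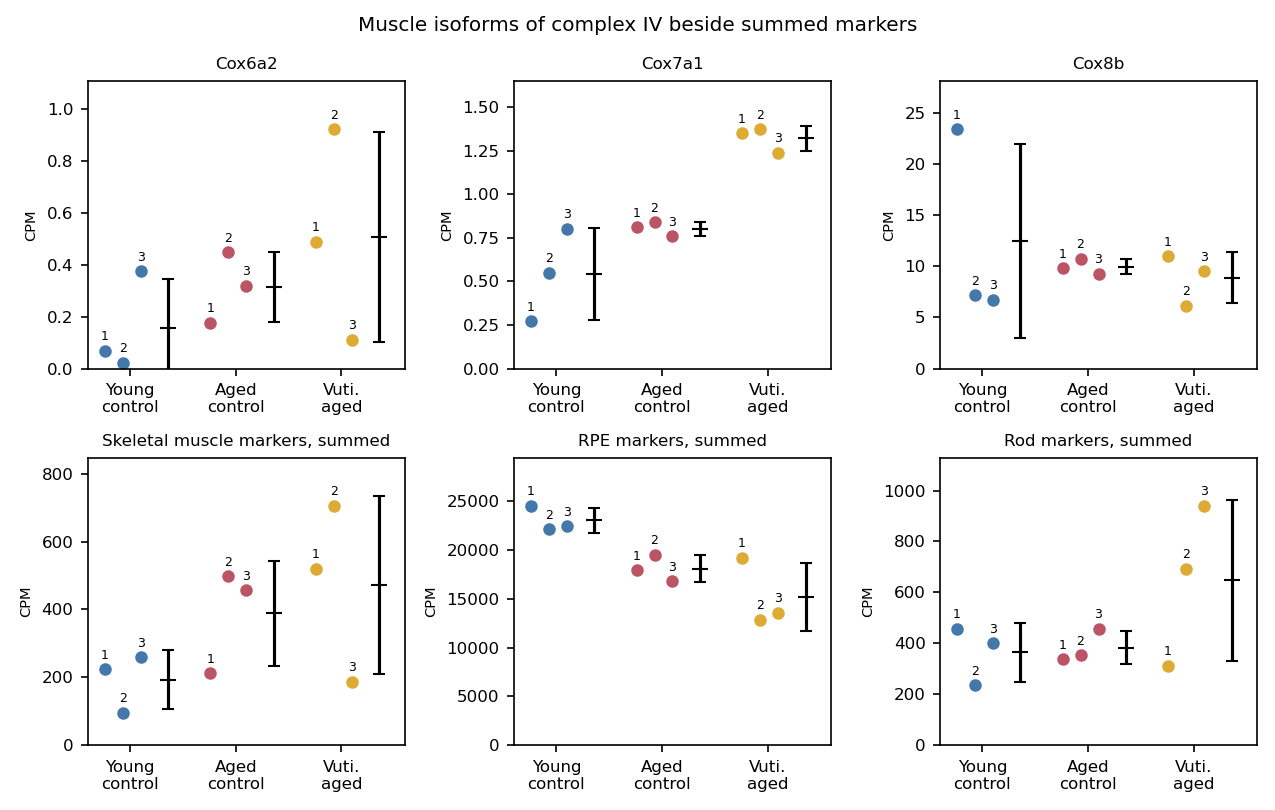
CPM (y axes, from 0) by group (x axis) of 3 muscle forms of complex IV subunits (top) and of summed skeletal muscle, RPE and rod markers (bottom); points are libraries with their replicate number, bars mean ± SD of 3. Cox7a1, Cox6a2 and the muscle markers each have their highest value of a group in young control 3, aged control 2 and treated library 2, and Cox7a1 is at 1.24 to 1.37 CPM in the treated libraries. Cox8b is lowest of its group in young control 3 and treated library 2 and highest of its group in aged control 2.

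The testis forms of complex IV subunits were detected at low levels. Cox6b2 was at 0.772, 2.51 and 2.09 CPM in young, 2.13, 2.13 and 1.80 in aged and 1.61, 1.80 and 1.74 in treated libraries, and its common form Cox6b1 at 26.1, 20.9 and 17.7, then 20.9, 23.1 and 20.4, then 19.7, 17.5 and 16.3 CPM. Cox6b2 was lowest in young control 1, where Cox6b1 was highest. Cox7b2 was at 1.09, 0.726 and 0.624 CPM in young, 0.600 to 0.741 in aged and 0.643 to 0.851 in treated libraries, and Cox7b at 24.8, 20.03 and 17.8, then 17.5, 20.7 and 16.7, then 21.1, 14.8 and 15.3 CPM. None of the 4 was called. Of the remaining subunits, Cox5a, a structural partner of Cox4, was above 0 against aged controls (0.16 ± 0.11, adjusted p = 0.393, edgeR), and Cox5b, a zinc-binding subunit, was below (-0.36 ± 0.18, adjusted p = 0.236, edgeR). Cox6c was at 10.6 to 12.5 CPM in all libraries and differed by 0.01, -0.02 and -0.01 in the 3 comparisons.

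Complex V gave 1 call. Atp5mpl, a small proteolipid bound to the membrane part of the enzyme, was at 43.9, 31.2 and 28.9 CPM in young controls, 27.4, 32.6 and 23.0 in aged controls and 25.6, 18.8 and 20.5 in treated libraries. Treated libraries were below all young controls but overlapped the aged controls. It fell by 0.68 ± 0.19 on the log2 scale against young controls (adjusted p = 0.0350, edgeR), and the call was lost without young control 1 (-0.48, adjusted p = 0.109, edgeR). The gene lies at chr12, 111927808 to 111933443, with no overlapping gene. Against aged controls it differed by -0.36 ± 0.19 (adjusted p = 0.263, edgeR), and between aged and young controls by -0.32 ± 0.18 (adjusted p = 0.584, edgeR).

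Atp5l, the membrane subunit g that helps the enzyme pair into dimers, was the complex V member with the smallest p against aged controls and stood above 0. It was at 12.6, 14.2 and 13.9 CPM in young controls, 13.7, 14.4 and 12.5 in aged controls and 15.7, 17.4 and 17.0 in treated libraries. The treated libraries did not overlap the controls, and the difference did not pass the test by edgeR (0.30 ± 0.10, adjusted p 0.106 against aged and 0.0663 against young controls). DESeq2 called it against aged controls (adjusted p = 0.0495) and against young controls, and edgeR called it against young controls with a filter of 1 CPM. The catalytic head showed the reverse sign without a call: Atp5a1 stood at 287 to 371 CPM in young, 269.7 to 299 in aged and 212 to 273 in treated libraries, and Atp5b at 263 to 341, 260.4 to 288 and 212 to 273. The stalk subunit gamma, Atp5c1, was at 62.9 to 73.7, 63.4 to 67.8 and 52.8 to 60.2 CPM (-0.21 ± 0.09 against aged controls, adjusted p = 0.173, edgeR). The 3 genes Atp5g1, Atp5g2 and Atp5g3, which code for the same mature ring subunit c, differed from aged controls by -0.19, -0.21 and -0.06. Atp5k, the subunit e that partners subunit g, had 2.73 CPM in young control 1 and 0.836 to 1.12 in the other 8 libraries.

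Other genes of these complexes, were described from a list of 48. Between aged and young controls 0 were called. Between treated and aged controls 1 was lower, Dmac2l, where 1.97% of all genes were lower. Dmac2l, formerly named Atp5s, was listed here with the assembly factors of complex V. It was at 11.8 to 12.1 CPM in aged and 8.06 to 9.42 in treated libraries (-0.45 ± 0.10, adjusted p = 0.0399, edgeR). Between treated and young controls 8 of 48 were lower and 2 higher, where 7.69% of all genes were lower and 9.01% higher. The 8 were all among the 39 genes listed as assembly factors: Coa3, Coa6, Cox14 and Slirp of complex IV, Atpaf2, Tmem242 and Dmac2l of complex V and Uqcc3 of complex III. Coa6, a copper-handling factor for complex IV, was at 6.82 to 8.86 CPM in young, 6.29 to 6.78 in aged and 4.70 to 5.396 in treated libraries (-0.65 ± 0.14 against young controls, adjusted p = 0.0134, edgeR). Cox14 and Coa3, which act on the new Cox1 protein, differed from young controls by -0.48 ± 0.10 and -0.60 ± 0.13 (adjusted p 0.0149 and 0.0165, edgeR). Uqcc3 fell by 0.49 ± 0.14, Slirp by 0.47 ± 0.12, Tmem242 by 0.36 ± 0.09 and Atpaf2 by 0.29 ± 0.09 on the log2 scale. In both comparisons of treated libraries 34 of the 39 assembly factors were below 0, with medians of -0.20 against aged and -0.21 against young controls.

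The 2 higher genes were Ttc19 and mt-Atp6. Ttc19, which clears fragments of the Rieske protein from complex III, was at 61.8 to 66.2 CPM in young, 60.02 to 63.3 in aged and 73.5 to 124 in treated libraries (0.55 ± 0.16 against young controls, adjusted p = 0.0381, edgeR). The mitochondrially coded ATP synthase subunit mt-Atp6 was at 84.7, 120 and 116 CPM in young, 128, 119.5 and 117 in aged and 153, 129 and 149.9 in treated libraries (0.43 ± 0.13, adjusted p = 0.0456, edgeR), with the lowest value in young control 1. Over the 6 mitochondrially coded partners the median was 0.34 between treated and young controls and 0.13 between treated and aged controls, on the other side of 0 from the nuclear members. Young control 1 was also the lowest of all libraries for mt-Cytb (87.5 CPM, with 151 and 149 in the other young controls). The same held for mt-Co2 (279, with 337 and 338) and mt-Atp8 (12.0, with 18.9 and 21.4). For mt-Co1 and mt-Co3 it was the highest young control. How far the median of 0.34 and the mt-Atp6 call rest on that library was not described by a fit without it. Only mt-Co1 and mt-Co3, at 4135 to 4990 and 1199 to 1472 CPM, were within 0.1 of 0 in all 3 comparisons. Of the remaining nuclear subunits, Cyc1, Cycs and Ndufa4, the last came nearest to a call (-0.35 ± 0.14 against young controls, adjusted p = 0.105, edgeR).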

How the data were processed

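RNA of 9 mouse RPE libraries was analysed from 1 deposited table. Per the submitters' processing notes the authors used Bowtie2 2.3.4.1, featureCounts 1.6.0 and DESeq2 (no version given) with GRCm38; chromosome accessions in the table carry the versions of GRCm39, 0 of 50 members have the GRCm38.p6 start, and no coordinate was converted. Promoters keep GRCm38.p6 positions. Whether reads were split over introns is not given in the sources used here. The authors deposited raw counts per gene and FPKM, which equals the count divided by gene span and library total (100% of values within 1e-06). Only the deposited counts were tested.

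Counts were scaled by TMM, filtered with filterByExpr (25273 genes kept) and fitted over all 9 libraries with edgeR 4.0.16 (quasi-likelihood, robust) in R 4.3.3; p-values were adjusted by Benjamini-Hochberg over all genes, with 0.05 as threshold. The fit was also run on counts simulated from its own estimates of spread. No library was made to stand apart there, and no result given here rests on that run. CPM use TMM-scaled totals; SE were derived from fold change and F; Wilson intervals (95%) cover counting error only. Alternatives were DESeq2 1.42.0, limma 3.58.1 (voom with quality weights), other scalings and filters, the 2 groups alone, marker covariates, a replicate block, genes without an overlapping gene alone, and libraries left out. Same-numbered libraries did not deviate together (correlations -0.08 to 0.15), so the numbers were not taken as pairs. No 2 libraries agreed within sampling noise. Members, lists and tests were chosen with earlier results of these data known. Given with values in every library were Cox8a, all called members, the member with the smallest p per complex and comparison, tissue forms of complex IV with their partners, and Sdha to Sdhd; other members were given by ranges. Reads shared with processed pseudogenes, and with the genes that 15 members overlap, could not be assigned.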

Additional observations from a re-analysis of the deposited data

How the results depend on the processing

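Between aged and young controls 0 members were called in every setting run, including all 9 fits that left out 1 library; the median log2 fold change of members ranged from -0.15 to 0.04 over those fits. The uncalled difference of Uqcrq there changed sign to 0.065 with limma-voom, to 0.13 without both libraries that stand apart and to 0.13 without young control 1; it ran from -0.37 to 0.13 over fits leaving out 1 library, and the cause was not tested. Between treated and aged controls the count of 0 became 1 with relative log expression factors (4.57% of all genes called), upper quartile factors (4.7%), total counts only (4.88%) or a filter of 1 CPM (7.75%). It became 2 with limma-voom (10.7%) or a threshold of 0.1 (3006 of 25273 genes), and 3 with DESeq2 (12.7%). Over fits leaving out 1 library it was 0 to 2 (0.097% to 15.9% of all genes), and the median -0.23 to -0.10. Between treated and young controls the count of 6 became 9 with DESeq2, upper quartile factors or total counts only (22.6%, 17.0% and 17.2% of all genes called) and 7 with a filter of 1 CPM (21.4%). It became 0 with the skeletal muscle covariate (3.36%), 1 with the rod covariate (10.2%) or the 2 groups alone (4.27%), and 2 without both libraries that stand apart (7.01%). It was 3 with limma-voom (15.1%) and 3 with genes without an overlapping gene alone (18.1%), where Sdhaf4, Cox4i2 and Cox7a1 are not tested. At a threshold of 0.1 it was 13 (6911 of 25273 genes). Over fits leaving out 1 library it was 1 to 7 (6.84% to 23.7% of all genes), and the median -0.31 to -0.12. With a replicate block the count was 6, where 14.2% of all genes were called (5 of them among the calls without it, with Sdhc in place of Cox8a). It was 0 between aged and young controls (1.27% of all genes) and between treated and aged controls (1.25%). Of the 6 calls, fits leaving out 1 library kept Sdhaf4 in 9, Atp5mpl in 4, Sdhaf1 in 3, Cox4i2 and Cox7a1 in 2 and Cox8a in 1. Adjusted p over the alternatives ran from 6.72e-05 to 0.0589 for Sdhaf4 and from 0.0236 to 0.174 for Cox8a. Depth limits Cox6a2 (1 to 43 counts per library) and Cox7a1 (12 to 67).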

Other observations

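Atp5d, the delta subunit of the ATP synthase, shares 24.1% of its span with Cbarp; Cbarp stood at 7.52 to 8.03 CPM in young controls and 9.71 to 16.1 in treated libraries, while Atp5d stayed within 23.7 to 30.6 CPM in all 9 libraries. Atp5j, coupling factor 6, shares 31.0% of its span with Gabpa, the gene of a factor whose letters were searched in the promoters. Gabpa was at 63.4 to 68.6 CPM in young, 58.9 to 62.8 in aged and 54.5 to 61.7 in treated libraries.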
